A study of Mus musculus with 7 samples.

Results

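Genomic imprinting leaves 1 parental copy of a gene active and the other silent, and 43 mouse genes known for it, all outside the Dlk1-Meg3 cluster, were followed in sorted cochlear supporting cells. The genes were taken from a list of symbols, and 43 of 43 were found among the 48709 genes of the expression tables. Each was noted as expressed from the paternal copy (25 genes) or the maternal copy (18 genes) from general knowledge, not from these data. The RNA came from mouse cochleae at postnatal day 1 that were kept in organ culture for 48 h, dissociated with trypsin, and sorted by flow cytometry for GFP-positive supporting cells. The culture medium of every group held EGF and FGF. The control cultures received the solvent DMSO (2 libraries), another group received 10 µM GSK-343 (3 libraries), an inhibitor of the histone methyltransferase EZH2, and the third received 200 nM TSA (2 libraries), an inhibitor of histone deacetylases. The labels name no GFP reporter, mouse strain or number of animals, and do not say whether libraries of a group came from separate cultures. The p-values thus cover only the spread among the libraries sequenced, which may be technical.

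In most cases an imprint is DNA methylation laid down in the egg or sperm at a control region. It decides in the offspring which copy of the neighbouring genes is read. Imprinted genes lie in clusters that often hold a long noncoding RNA, such as Airn or Kcnq1ot1, which silences neighbours in cis on its own chromosome. EZH2 places trimethylation on lysine 27 of histone H3, a mark found on the silent copy of some of these genes, and histone deacetylases remove acetyl groups that go with active chromatin. Many of the genes regulate growth, among them the growth factor gene Igf2, its clearance receptor Igf2r and the insulin receptor adaptor Grb10. For several members, including Copg2, Ube3a, Gnas, Commd1, Dcn, Grb10 and Slc22a3, imprinting is limited to certain tissues. The parental label therefore need not hold in supporting cells. The libraries measure the sum over both copies, and no allele was read.

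The libraries held 2724381 to 5974230 expected counts. The DMSO libraries stood apart in their making: the length that RSEM, the quantification program, subtracted from each transcript had a median of 49 bases in both, against 208.21 to 212.69 in the 5 treated libraries, which is another read layout. Nuclear protein-coding genes took 62.5% and 63.4% of counts in DMSO and 78.2% to 93.4% in treated libraries, and mitochondrial transcripts took 25.5% to 26.8% against 4.31% to 19.1%. A difference from DMSO therefore cannot be told apart from a difference of layout, and TSA is set against GSK-343 before either is set against DMSO. Markers of supporting cells (16 genes) summed to 8020 and 5900 TPM in DMSO, 27000 to 37800 in GSK-343, and 14900 and 11600 in TSA. The labelled cell type was therefore present. S100a1 (27800) and Tectb (6800) made up most of the highest sum. Of 15 tested as described below, 0 were higher and 5 lower in TSA than in GSK-343 (9.56% of all genes passed). Against DMSO, 0 were higher and 7 lower with TSA (28.5% of all genes), and 3 higher and 6 lower with GSK-343 (39.0%). Neuronal markers (12 genes) summed to 482 and 636 TPM in TSA, 53.9 to 159 in GSK-343 and 38.3 and 64.3 in DMSO; hair cell markers (10 genes) summed to 505 and 2000 TPM, 323 to 670, and 76.3 and 110. Fewer cells of a type and less RNA per cell cannot be told apart in such pooled RNA. Of these lists, the neuronal markers at 0 numbered 0 and 1 in TSA, 2 to 3 in GSK-343 and 1 and 3 in DMSO, and the hair cell markers at 0 numbered 0 to 1 in any library. Against DMSO, 7 of 10 hair cell markers were higher with TSA (12.8% of all genes) and 5 with GSK-343 (17.7%), and 0 were lower. Of 9 neuronal markers tested, 5 were higher with TSA, and 3 higher and 1 lower with GSK-343. Mesenchyme markers (12 genes) summed to 61.8 and 81.7 TPM in DMSO, 70 to 217 in GSK-343, and 78.4 and 202 in TSA. Sums for endothelium and macrophages reached at most 10.4 TPM. The part of any of these cell types in the differences described was not tested.

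Levels are given as CPM, counts relative to library size after TMM scaling of the libraries, unless TPM, which also divides by transcript length, is named. Differences are log2 fold changes with their standard error from edgeR's quasi-likelihood test in 1 model of all 7 libraries, and adjusted p is the Benjamini-Hochberg value over 14907 genes, with 0.05 as the threshold. Of the 43 imprinted genes, 37 had enough counts to be tested. The other 6 (Slc22a2, Phlda2, Ascl2, Snurf, Magel2 and Asb4) reached at most 9.12 CPM in any library, and the highest of them was Snurf in DMSO replicate 2. All 43 together took 0.164% to 0.165% of counts in DMSO, 0.266% to 0.278% in GSK-343 and 0.235% to 0.301% in TSA.

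**Figure D1:**
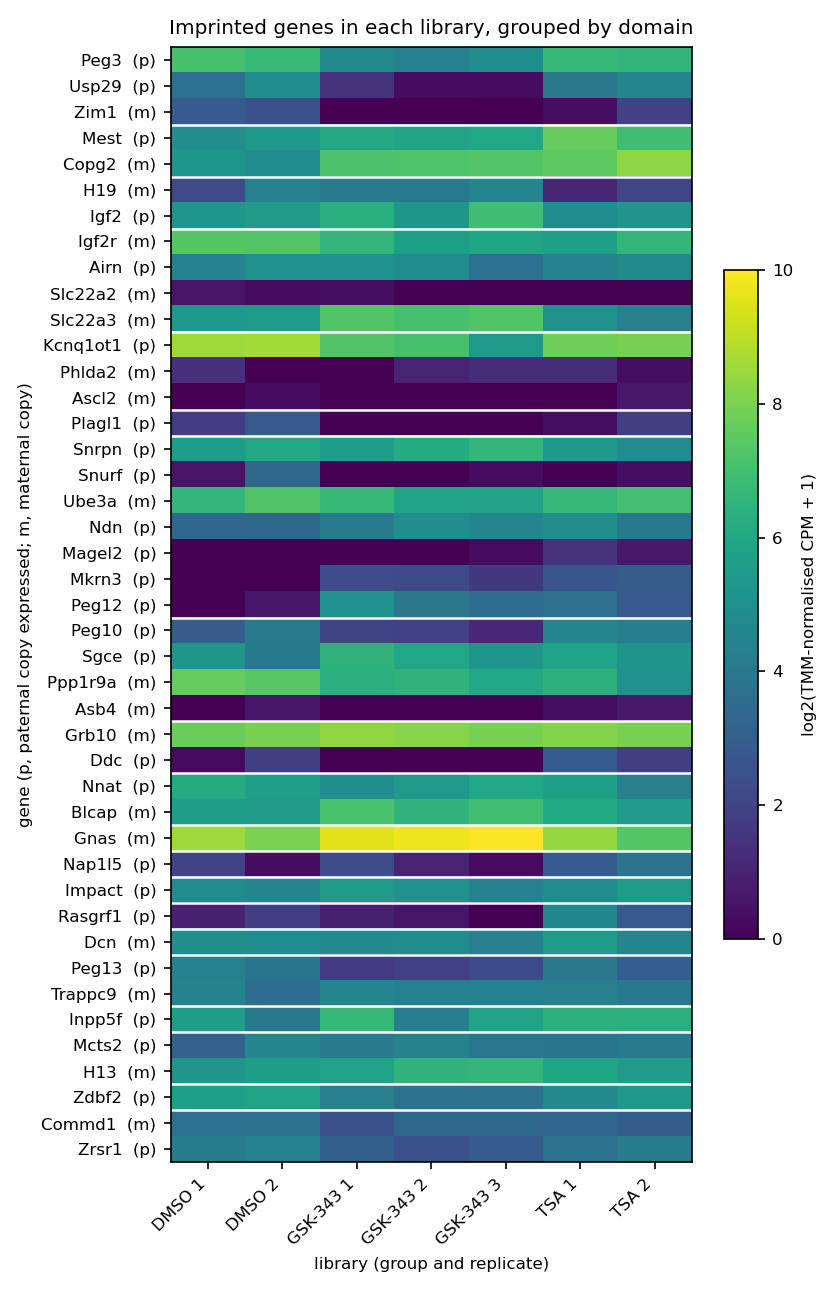
Level of each of the 43 imprinted genes (rows) in each of the 7 libraries (columns), as log2(CPM + 1) on the colour scale. Gnas and Grb10 were among the brightest rows in every group, while Slc22a2, Ascl2, Magel2 and Asb4 reached at most 1.68 CPM and Zim1, Plagl1 and Ddc were at 0 in the 3 GSK-343 libraries.

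Between TSA and GSK-343, which share a read layout, 6 imprinted genes were higher and 3 lower with TSA. The higher ones were Peg3 and its neighbour Usp29, Mest, the retrotransposon-derived Peg10, the dopa decarboxylase gene Ddc and the Ras exchange factor gene Rasgrf1, and all 6 are known as paternally expressed. The lower ones were the noncoding RNA H19, the organic cation transporter gene Slc22a3 and Gnas, which encodes the stimulatory G protein alpha subunit. All 3 are known as maternally expressed. The labels of some of the 9 genes come from other tissues, as for Slc22a3 (placenta), and Gnas sums transcripts of either or both copies. Whether the labels hold in these cells was not tested. These 9 are 24.3% of the 37 tested, against 9.56% of all 14907 genes (680 or 4.56% higher, 745 or 5.0% lower). Since the list was chosen with results of these data known, the counts are a description and nothing more is drawn from them.

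The median log2 fold change was 0.16 over the 37 imprinted genes and 0.0 over all genes. It was 1.09 over the 23 paternally expressed genes tested, or 0.95 with the 2 genes that had no count in GSK-343 set at their lower bounds, and -0.21 over the 14 maternally expressed genes. The libraries of TSA and GSK-343 did not overlap for 22 genes, 15 higher and 7 lower with TSA, which is 59.5% of those tested against 46.3% of all genes. Scaling by total counts moved the median of all genes to 0.2 and gave 947 higher and 378 lower genes, 6 and 2 of them imprinted. On TPM values with limma that median was 0.24, and 5 imprinted genes were higher and 1 lower, beside 834 and 173 of all genes. Leaving out TSA replicate 2 reduced the imprinted genes to 3 higher and 1 lower, beside 89 and 70 of all genes. Without TSA replicate 1 there were 2 and 2, without GSK-343 replicate 2 there were 2 and 2, and without GSK-343 replicate 3 there were 3 and 2.

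**Figure D2:**
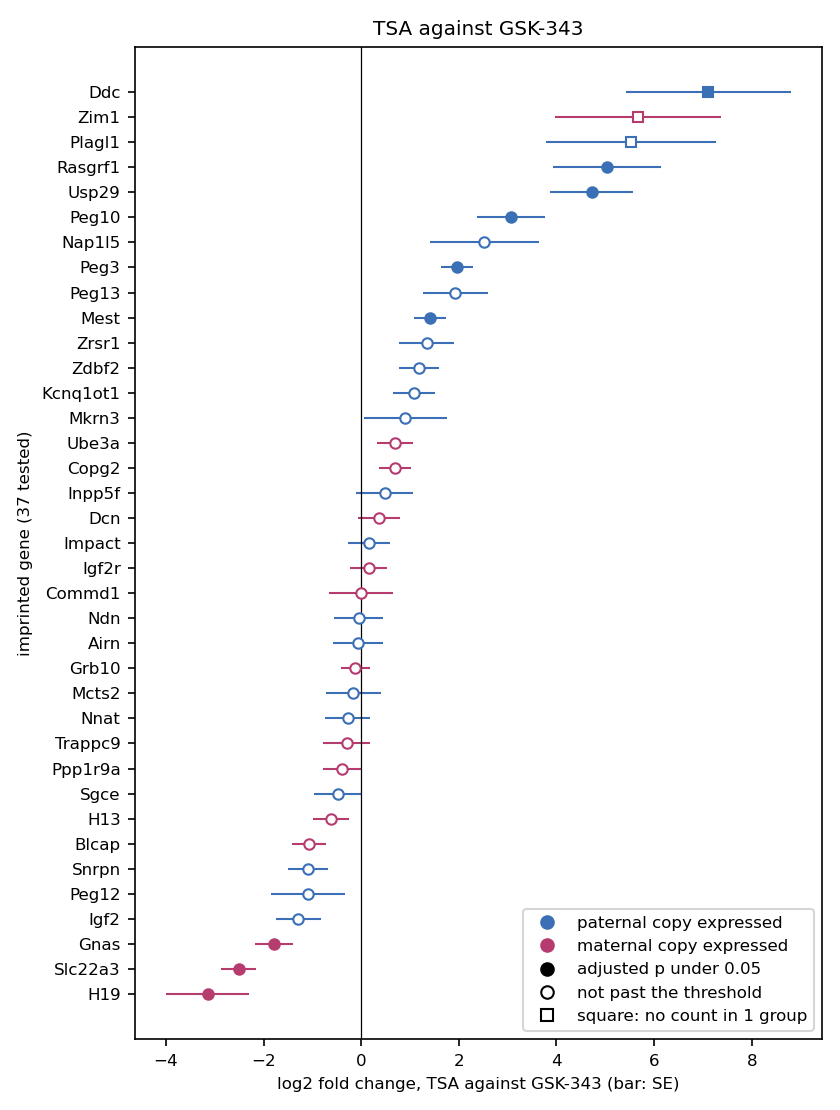
Log2 fold change of TSA against GSK-343 (x axis) with its standard error (bar) for the 37 imprinted genes tested (y axis), coloured by the parental copy known to be expressed; filled symbols have an adjusted p under 0.05, and squares mark genes with no count in the GSK-343 libraries, whose fitted value depends on the model's prior. The 6 filled symbols to the right of 0 are genes labelled paternal and the 3 to the left genes labelled maternal. The labels were not read in these cells.

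Against DMSO, GSK-343 gave 6 higher and 12 lower imprinted genes. The higher ones were Copg2, Slc22a3, the makorin gene Mkrn3, Peg12, Blcap and Gnas; the lower ones were Peg3, Usp29, Zim1, Plagl1, Igf2r, Kcnq1ot1, Peg10, Ppp1r9a, Ddc, Peg13, Zdbf2 and Zrsr1. These are 48.6% of the 37 genes, against 39.0% of all genes (2635 or 17.7% higher, 3174 or 21.3% lower). Of the 12 lower genes 9 are labelled as paternally expressed, and of the 6 higher genes 2 are. The median was -0.03 over the imprinted genes and -0.04 over all genes, and the libraries did not overlap for 67.6% of the imprinted and 60.7% of all genes. The split depended on the scaling. With total counts the median of all genes was 0.42 and the calls were 12 higher and 8 lower imprinted genes (3870 and 2263 of all genes), and with limma on TPM it was 0.24 and the calls were 14 and 3 (4122 and 3164). Without DMSO replicate 2 the calls were 4 higher and 6 lower.

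Against the same DMSO libraries, TSA gave 4 higher imprinted genes (Mest, Copg2, Mkrn3 and Peg12) and 1 lower one (Ppp1r9a). These are 13.5% of the 37 genes, against 28.5% of all genes (1912 or 12.8% higher, 2340 or 15.7% lower). The median was -0.03 over the imprinted genes and -0.05 over all genes, and the libraries did not overlap for 59.5% of the imprinted and 68.6% of all genes. Scaling by total counts moved the median of all genes to 0.65 and gave 8 higher imprinted genes, with Ppp1r9a no longer past the threshold (3782 higher and 1292 lower of all genes), and limma on TPM moved it to 0.67 and gave 14 and 1 (5039 and 2491). All 3 comparisons share libraries, so they are not independent of each other.

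**Figure D3:**
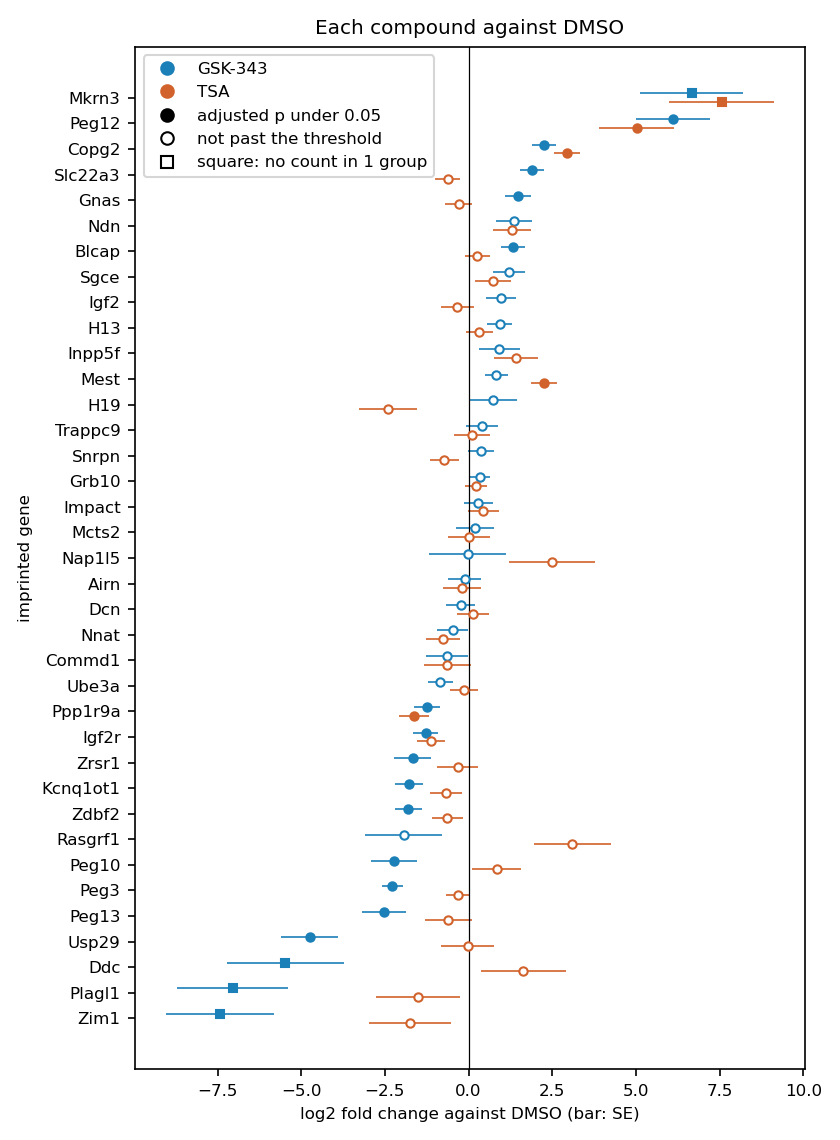
Log2 fold change against DMSO (x axis) with its standard error (bar) for GSK-343 and TSA in each of the 37 imprinted genes tested (y axis); filled symbols have an adjusted p under 0.05, and squares mark genes with no count in 1 of the groups, whose fitted value depends on the model's prior. Mkrn3, Peg12 and Copg2 are past the threshold to the right for both compounds, and Peg3, Usp29, Zim1 and Plagl1 are past it to the left for GSK-343, with TSA symbols that are not past it.

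In the Peg3 domain on chromosome 7, all 3 members were lowest with GSK-343. Peg3 (chr7:6703892-6730431, GRCm38, minus strand) encodes a zinc finger repressor, and Usp29 (chr7:6730578-6967219, plus strand) encodes a ubiquitin-specific protease and is read in the opposite direction from a start next to that of Peg3. Zim1 (chr7:6671269-6696450, minus strand), a zinc finger gene of the same cluster, is read from the maternal copy. Peg3 stood at 135 and 107 CPM in DMSO, 25.8, 20.7 and 28.2 in GSK-343, and 102 and 91.5 in TSA. Every GSK-343 library was therefore below every other library, with no overlap. Peg3 was higher in TSA than in GSK-343 by 1.96 ± 0.32 (SE; adjusted p = 0.00857) and was lower in GSK-343 than in DMSO, at -2.28 ± 0.32 (adjusted p = 0.000343). Usp29 stood at 11.7 and 27.1 CPM in DMSO, 1.7, 0.243 and 0.231 in GSK-343, and 14.8 and 23.2 in TSA. Its GSK-343 libraries were again the 3 lowest, and GSK-343 replicate 1 was the highest of them. Usp29 was higher in TSA than in GSK-343 by 4.72 ± 0.85 (adjusted p = 0.0107) and lower in GSK-343 than in DMSO, at -4.74 ± 0.85 (adjusted p = 0.00136). The length that RSEM, the quantification program, assigned to Usp29 was 2747 to 3211 bases in DMSO and 4191 to 7540 in treated libraries.

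Zim1, the maternally expressed member of that domain, stood at 6.29 and 4.69 CPM in DMSO, had no count in any GSK-343 library, and stood at 0.28 and 2.93 CPM in TSA. Against a floor of 3 counts per library, Zim1 was at least 7.24-fold higher in DMSO than in GSK-343 (adjusted p = 0.00503); TSA against GSK-343 gave at least 2.12-fold with an adjusted p of 0.0609. For TSA against DMSO the differences were -0.32 ± 0.35 (adjusted p = 0.521) for Peg3, -0.03 ± 0.79 (adjusted p = 0.984) for Usp29 and -1.76 ± 1.22 (adjusted p = 0.306) for Zim1, and the first of these was 0.39 with total count scaling and 0.54 on TPM. The calls of Peg3 in both comparisons, and of Usp29 and Zim1 between GSK-343 and DMSO, were kept in every alternative analysis that could test them, which were 19 for Peg3 and Usp29 and 17 for Zim1.

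**Figure D4:**
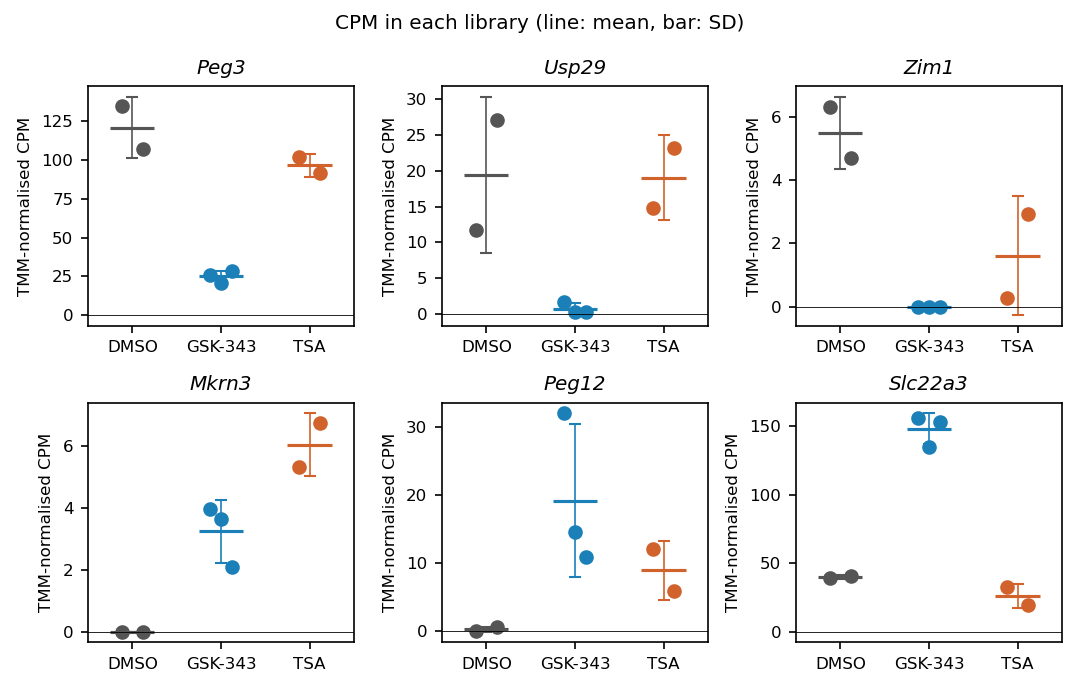
TMM-normalised CPM (y axis) in each library (points) by group (x axis) for Peg3, Usp29, Zim1, Mkrn3, Peg12 and Slc22a3, with the group mean (line) and SD (bar); n is 2, 3 and 2. The GSK-343 points lie below all others for Peg3, Usp29 and Zim1 and above all others for Slc22a3, and the DMSO points lie at or near 0 for Mkrn3 and Peg12.

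The starts of these genes are shown because neighbours on chromosome 7 changed in the same direction. The windows run from 250 bases before to 50 bases after a RefSeq start in GRCm38.p6, 5′ to 3′ on the strand of the gene. Every CG dinucleotide, the site of the methylation that can carry an imprint, is in capitals. Peg3 lies at chr7:6730370-6730669 (minus strand) with 13 CG, Zim1 at chr7:6696383-6696682 (minus strand) with 20, Mkrn3 at chr7:62420104-62420403 (minus strand) with 15, Peg12 at chr7:62464461-62464760 (minus strand) with 12, and Slc22a3, which was highest with GSK-343, at chr17:12507655-12507954 (minus strand) with 5.
Peg3: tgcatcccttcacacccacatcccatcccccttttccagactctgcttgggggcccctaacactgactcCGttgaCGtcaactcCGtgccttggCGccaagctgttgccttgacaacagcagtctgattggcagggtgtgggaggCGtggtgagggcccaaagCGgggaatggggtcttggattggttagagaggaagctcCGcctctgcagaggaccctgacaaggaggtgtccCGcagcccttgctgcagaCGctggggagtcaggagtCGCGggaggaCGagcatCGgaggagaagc
Zim1: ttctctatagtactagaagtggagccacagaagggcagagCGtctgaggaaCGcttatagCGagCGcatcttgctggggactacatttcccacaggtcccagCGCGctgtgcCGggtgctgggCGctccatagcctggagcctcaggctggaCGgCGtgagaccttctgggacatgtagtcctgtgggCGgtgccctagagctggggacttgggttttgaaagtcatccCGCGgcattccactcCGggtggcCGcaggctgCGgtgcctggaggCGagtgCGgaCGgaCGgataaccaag
Mkrn3: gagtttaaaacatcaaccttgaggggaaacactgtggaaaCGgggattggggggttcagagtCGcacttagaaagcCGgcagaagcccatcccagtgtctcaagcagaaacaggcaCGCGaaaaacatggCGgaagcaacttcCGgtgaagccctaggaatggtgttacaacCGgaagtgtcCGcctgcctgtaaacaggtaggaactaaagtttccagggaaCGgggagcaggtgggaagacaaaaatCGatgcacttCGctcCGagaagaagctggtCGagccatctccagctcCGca
Peg12: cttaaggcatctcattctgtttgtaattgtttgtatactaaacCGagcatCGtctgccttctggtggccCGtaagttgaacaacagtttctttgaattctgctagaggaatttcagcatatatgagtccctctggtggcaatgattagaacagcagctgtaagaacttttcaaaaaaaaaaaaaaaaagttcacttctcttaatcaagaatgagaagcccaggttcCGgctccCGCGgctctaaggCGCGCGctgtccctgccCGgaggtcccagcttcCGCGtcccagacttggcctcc
Slc22a3: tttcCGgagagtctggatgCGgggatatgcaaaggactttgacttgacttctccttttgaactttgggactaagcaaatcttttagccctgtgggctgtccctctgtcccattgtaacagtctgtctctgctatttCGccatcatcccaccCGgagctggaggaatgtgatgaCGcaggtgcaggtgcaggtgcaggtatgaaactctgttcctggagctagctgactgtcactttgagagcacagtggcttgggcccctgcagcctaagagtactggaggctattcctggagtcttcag
A window of Usp29 shares 263 bases with that of Peg3, since the gene bodies lie 146 bases apart, so the first sequence shows nearly all of both starts. Among all 32851 windows of the RefSeq table, 37.9% held at least as many CG as Peg3, 26.5% as many as Zim1, 34.6% as many as Mkrn3, 39.6% as many as Peg12 and 62.0% as many as Slc22a3. RefSeq gave 53 windows for 36 of the 43 imprinted genes, with a median of 15 CG against 7 over the table. The letters TGCCGC, searched on both strands and known as the methylated sequence that ZFP57, a protector of imprints, recognises, occurred in 15 of these 53 windows (28.3%), in 14 genes, against 11.6% of all windows; the letters include 1 CG. These windows are not all distinct, since Snrpn and Snurf share 1 of them and a pair of Mest windows lies 3 bases apart. Of the windows shown, the one of Zim1 holds it and the other 4 do not. DNA methylation was not measured, and a match is only a match of letters.

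In the Prader-Willi domain, a paternally expressed cluster also on chromosome 7, a pair of genes without introns was nearly absent from DMSO and present with both compounds. Mkrn3 (chr7:62417593-62420139, minus strand) encodes a ring finger protein known for holding back puberty, and Peg12 (chr7:62461871-62464510, minus strand) a member of the FRAT family that acts in Wnt signalling. Mkrn3 had no count in DMSO, stood at 3.97, 3.65 and 2.08 CPM in GSK-343, and at 5.32 and 6.75 in TSA. Mkrn3 was at least 4.44-fold higher in GSK-343 (adjusted p = 0.00598) and at least 8.29-fold higher in TSA (adjusted p = 0.00601) than in DMSO. Peg12 stood at 0 and 0.521 CPM in DMSO, 32, 14.6 and 10.9 in GSK-343, and 12 and 5.87 in TSA. With 2 counts in DMSO in all, the ratio of Peg12 to DMSO was 76.2 for GSK-343 (95% counting interval 20.8 to 633; adjusted p = 0.00148) and 37.4 for TSA (9.93 to 316; adjusted p = 0.00778). These 4 calls were kept in all alternatives that could test them, 18 for Mkrn3 and 19 for Peg12. No alternative used here changes the read layout of the DMSO libraries, so layout and treatment still cannot be told apart. Between TSA and GSK-343 the differences were 0.9 ± 0.85 (adjusted p = 0.531) for Mkrn3 and -1.09 ± 0.76 (adjusted p = 0.379) for Peg12.

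The other members of that domain with enough counts to be tested (Ndn, Snrpn and Ube3a) passed in no comparison. Ndn, which encodes the growth suppressor necdin, stood at 8.98 and 9.12 CPM in DMSO, 17, 29 and 23.4 in GSK-343, and 29.4 and 15.3 in TSA. All treated libraries were above both DMSO libraries for Ndn, with differences of 1.35 ± 0.53 (adjusted p = 0.0595) for GSK-343 and 1.3 ± 0.56 (adjusted p = 0.102) for TSA. Snrpn, which encodes a splicing protein and marks the imprinting centre of the domain, ranged from 28.5 to 96.4 CPM over the 7 libraries, and its smallest adjusted p was 0.099, for TSA against GSK-343 at -1.09 ± 0.4. Ube3a, the ubiquitin ligase gene of Angelman syndrome, ranged from 53.5 to 154 CPM, with an adjusted p of 0.0901 for GSK-343 against DMSO at -0.84 ± 0.37. That difference was 0.41 on TPM and 0.24 when the dependence of the counts on GC content and gene length was regressed out, an analysis called the trend removed from here on. Ube3a shares 8.74% of its exonic bases with the antisense RNA Snhg14 and 27.27% with other genes in all, and the labels do not say that strand was kept. Snurf lies wholly within exons of Snrpn and of Gm38393, a gene on the same strand that shares 27.3% of the exonic bases of Snrpn. Reads of these genes cannot be split with certainty. Untested for its low counts, Snurf had 37 counts in DMSO, nearly all in replicate 2 (9.12 CPM, against 0.449 in replicate 1), and 1 in each treated group. The ratio of DMSO to GSK-343 was 53.4 (95% counting interval 9.01 to 2170) and that to TSA 31.2 (5.26 to 1260). Snurf is 216 bases long, and the median length subtracted was 208.21 to 212.69 bases in treated libraries, against 49 in DMSO. These ratios therefore cannot be told apart from the read layout. The 1 count of each treated group is a rounded share of 0.71 or 0.66. In TPM, Snurf stood at 3.34 and 55.16 in DMSO, 0, 0 and 11.14 in GSK-343, and 0 and 16.28 in TSA. Magel2 had 0 counts in DMSO and 8 in all in TSA.

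At the Igf2r domain on chromosome 17, Slc22a3 was the member that set GSK-343 apart. Slc22a3 (chr17:12418960-12507704, minus strand) encodes an organic cation transporter that Airn is known to silence on the paternal copy in placenta. It stood at 39.1 and 40.9 CPM in DMSO, 156, 135 and 153 in GSK-343, and 32.2 and 19.7 in TSA. All GSK-343 libraries were above all others. Slc22a3 was higher in GSK-343 than in DMSO by 1.89 ± 0.35 (adjusted p = 0.00162) and lower in TSA than in GSK-343, at -2.51 ± 0.36 (adjusted p = 0.00527), and both calls were kept in all 19 alternatives. TSA and DMSO differed by -0.62 ± 0.37 (adjusted p = 0.222), and by 0.1 with total count scaling. Its exons share 9.31% of their bases with Plg on the other strand.

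Igf2r, which encodes the receptor that removes IGF2 and sorts lysosomal enzymes, stood at 164 and 160 CPM in DMSO, 93.8, 49.2 and 57.3 in GSK-343, and 52.4 and 95.9 in TSA. Both DMSO libraries were above all treated ones. Igf2r was lower in GSK-343 than in DMSO, at -1.28 ± 0.37 (adjusted p = 0.0166), and TSA gave -1.13 ± 0.42 (adjusted p = 0.0604). The GSK-343 call was lost with total count scaling (adjusted p = 0.087), on TPM (0.0863), without GSK-343 replicate 2 (0.057), and without either DMSO library (0.0766 for replicate 1 and 0.0616 for replicate 2). Airn, the noncoding RNA read against Igf2r from the paternal copy, ranged from 11.6 to 32.6 CPM with overlapping groups and an adjusted p of at least 0.824 in each comparison. Per length, the ratio of Airn to Igf2r TPM was 0.786 and 1.13 in DMSO and 2.42 to 6.51 over the treated libraries. The length that RSEM assigned to Igf2r was 5549 to 6214 bases in DMSO and 8435 to 8887 in treated libraries, and that change of isoform mix moves the TPM ratio.

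Kcnq1ot1, the long noncoding RNA that silences the Kcnq1 cluster in cis, was the longest member at 84395 bases in the RSEM tables. It stood at 366 and 392 CPM in DMSO, 155, 134 and 42.5 in GSK-343, and 223 and 249 in TSA. The 3 groups did not overlap, with GSK-343 lowest. GSK-343 and DMSO differed by -1.78 ± 0.43 (adjusted p = 0.00687), but this direction turned to 3.06 (adjusted p = 0.000295) with the trend removed, and on TPM the adjusted p was 0.241. Kcnq1ot1 stood at 4.89 and 4.69 TPM in DMSO and 3.59, 2.82 and 0.83 in GSK-343, so TPM kept the direction of the counts. Whether the trend holds at such a length was not tested. Kcnq1ot1 lies within Kcnq1 on the other strand. Of the neighbours it is known to silence, Phlda2 and Ascl2 reached at most 1.57 and 0.587 CPM, and Cdkn1c, a cell cycle inhibitor gene, ranged from 13.4 to 56.6 CPM with an adjusted p of at least 0.35. Kcnq1, the potassium channel gene, stood at 1.8 and 1.56 CPM in DMSO, 0, 0.243 and 0.231 in GSK-343, and 3.08 and 5.57 in TSA. Kcnq1 was higher in TSA than in GSK-343 by 4.47 ± 1.13 (adjusted p = 0.0312) and lower in GSK-343 than in DMSO, at -3.12 ± 1.15 (adjusted p = 0.047). Every GSK-343 library was below the level of 3 counts for Kcnq1 (0.6937 to 0.85 CPM), so both fitted sizes depend on the model's prior. No counting interval and no alternative analysis was read for Kcnq1.

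Of the growth genes, H19 and Igf2 share enhancers on chromosome 7, and reading of 1 excludes the other on a chromosome. H19 stood at 3.82 and 19.6 CPM in DMSO, 17, 17 and 23.8 in GSK-343, and 1.12 and 3.23 in TSA. The TSA libraries were the 2 lowest, while the DMSO libraries lay far from each other. H19 was lower in TSA than in GSK-343, at -3.14 ± 0.85 (adjusted p = 0.0385). The call was lost with total count scaling (0.0527), on TPM (0.0802), with the trend removed (0.0877), and without GSK-343 replicate 2 (0.0704), GSK-343 replicate 3 (0.0925), TSA replicate 1 (0.136) or TSA replicate 2 (0.0905). Igf2 stood at 37.1 and 43.5 CPM in DMSO, 76.5, 38.5 and 120 in GSK-343, and 28 and 35.8 in TSA. TSA against GSK-343 did not pass for Igf2 (-1.29 ± 0.46, adjusted p = 0.0905). TSA against DMSO gave -0.34 ± 0.49 (adjusted p = 0.638), which turned to 0.36 with total count scaling and 1.28 on TPM. The ratio of H19 to Igf2 TPM was 0.0439 and 0.046 in TSA, 0.144 to 0.439 in GSK-343, and 0.0937 and 0.73 in DMSO.

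Plagl1 encodes a zinc finger factor known to bind enhancers of H19 and Igf2. It stood at 2.47 and 6 CPM in DMSO, had no count in GSK-343, and stood at 0.28 and 2.64 CPM in TSA. GSK-343 was lowest, as for Zim1. Plagl1 was at least 5.58-fold higher in DMSO than in GSK-343 (adjusted p = 0.00741), a call lost without DMSO replicate 2 (0.0623). TSA was at least 1.93-fold above GSK-343 with an adjusted p of 0.0692. The length assigned to Plagl1 was 789 and 863 bases in DMSO and 1187 and 5260 in TSA. Grb10, which encodes an adaptor that dampens insulin and IGF receptor signalling, stood at 207 to 325 CPM in all libraries, and its differences lay between -0.12 ± 0.29 and 0.34 ± 0.29 with an adjusted p of at least 0.38.

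Ddc, the neighbour of Grb10, encodes the enzyme that makes dopamine and serotonin from their amino acid precursors. It stood at 0.225 and 2.61 CPM in DMSO, had no count in GSK-343, and stood at 6.16 and 2.64 CPM in TSA. Ddc was at least 5.81-fold higher in TSA than in GSK-343 (adjusted p = 0.0303), but without any 1 of GSK-343 replicates 2 and 3 and TSA replicates 1 and 2 the adjusted p was 0.062, 0.06, 0.246 and 0.182. For GSK-343 against DMSO, Ddc rested on 11 counts in DMSO (at least 1.87-fold higher in DMSO, adjusted p = 0.0312), and the call was lost without DMSO replicate 2 (0.339), without any 1 GSK-343 library (0.0513 to 0.0616), without either TSA library (0.0815 to 0.13), in DESeq2 (0.0662) and on TPM (0.101).

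Mest and Copg2 overlap tail to tail on chromosome 6, sharing 912 exonic bases on opposite strands, which are 23.1% of Mest and 17.8% of Copg2. Without strand, reads from those bases cannot be assigned to either gene. Mest (chr6:30723547-30748465, plus strand) encodes a hydrolase of mesoderm and fat, and stood at 29.2 and 39.6 CPM in DMSO, 64.3, 55.7 and 62.9 in GSK-343, and 203 and 121 in TSA. The groups did not overlap, and TSA was highest. Mest was higher in TSA than in DMSO by 2.24 ± 0.39 (adjusted p = 0.00206) and higher than in GSK-343 by 1.41 ± 0.33 (adjusted p = 0.0252). The first call was kept in all 19 alternatives. The second was lost without GSK-343 replicate 2 (0.0705), GSK-343 replicate 3 (0.0559), TSA replicate 1 (0.217) or TSA replicate 2 (0.0551).

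Copg2 (chr6:30747554-30896794, minus strand), which encodes a coat protein of transport vesicles, stood at 37.3 and 27.4 CPM in DMSO, 148, 151 and 160 in GSK-343, and 181 and 313 in TSA. Every treated library was above both DMSO libraries. Copg2 was higher than in DMSO by 2.24 ± 0.36 with GSK-343 (adjusted p = 0.000719) and by 2.93 ± 0.39 with TSA (adjusted p = 0.00046), in all 19 alternatives. Its assigned length was 1698 to 1801 bases in DMSO and 3731 to 3936 in treated libraries, a ratio of 2.2 that 2.41% of all genes tested reached, so other isoforms were counted in the DMSO libraries, whose layout also differed. TSA and GSK-343 differed by 0.69 ± 0.32 (adjusted p = 0.184).

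Peg10 and Sgce share a start region on chromosome 6 and are both read from the paternal copy, but stood in different orders. Peg10, a gag-pol gene of retrotransposon origin needed in placenta, stood at 6.74 and 15.9 CPM in DMSO, 3.12, 2.92 and 1.16 in GSK-343, and 22.4 and 18.2 in TSA. The 3 groups did not overlap. Peg10 was higher in TSA than in GSK-343 by 3.07 ± 0.69 (adjusted p = 0.0213) and lower in GSK-343 than in DMSO, at -2.23 ± 0.69 (adjusted p = 0.0222). The first call was lost without GSK-343 replicate 2 (0.0513), GSK-343 replicate 3 (0.0596), TSA replicate 1 (0.0568) or TSA replicate 2 (0.0792) and with the trend removed (0.0543). The second was lost without DMSO replicate 2 (0.171) or GSK-343 replicate 3 (0.0764), with total count scaling (0.0583), on TPM (0.235) and with the trend removed (0.282). Sgce, the sarcoglycan gene of myoclonus dystonia, ranged from 15.6 to 89.8 CPM with overlapping groups, and its smallest adjusted p was 0.0689. The ratio of Peg10 to Sgce TPM was 0.00683 to 0.0106 in GSK-343, 0.0978 and 0.121 in TSA, and 0.0696 and 0.278 in DMSO, so GSK-343 lay below both other groups.

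Ppp1r9a, a maternally expressed neighbour that encodes the actin-binding protein neurabin, stood at 197 and 166 CPM in DMSO, 80.2, 88.6 and 61 in GSK-343, and 85.1 and 32 in TSA. Both DMSO libraries were above all treated ones. It was lower in TSA than in DMSO, at -1.63 ± 0.45 (adjusted p = 0.0177), and in GSK-343 than in DMSO, at -1.24 ± 0.39 (adjusted p = 0.0242). The TSA call was lost without DMSO replicate 1 (0.0855) or TSA replicate 2 (0.187), and the GSK-343 call without GSK-343 replicate 3 (0.0746) or either DMSO library (0.128 for replicate 1 and 0.0584 for replicate 2). Both calls were also lost with total count scaling (0.168 and 0.161) and on TPM (0.111 and 0.131), and the GSK-343 call with the trend removed (0.418). The length that RSEM assigned to Ppp1r9a was 3904 to 6556 bases in DMSO and 8089 to 9288 in treated libraries. This ratio of 1.7 was reached by 6.31% of all genes tested. Other isoforms were thus counted in the DMSO libraries, whose layout also differed. Asb4, the other member there, reached at most 0.587 CPM.

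**Figure D5:**
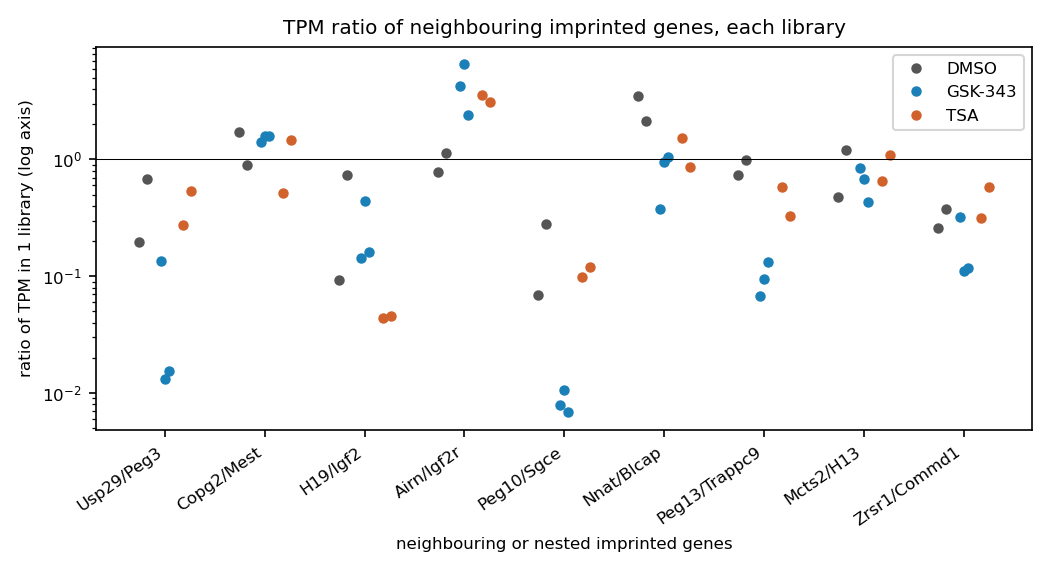
Ratio of the TPM of neighbouring imprinted genes (y axis, log scale) in each library (points) by group, for 9 pairs of neighbours. Usp29 to Peg3, Peg10 to Sgce and Peg13 to Trappc9 were lowest in the 3 GSK-343 libraries, H19 to Igf2 was lowest in the 2 TSA libraries, and Airn to Igf2r was lowest in the 2 DMSO libraries.

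Gnas (chr2:174284320-174346744, plus strand) was the most abundant imprinted gene per length. It held 40.9% to 48.5% of the summed TPM of the 43 genes in GSK-343, 22.8% to 31.2% in DMSO and 15.3% to 26.7% in TSA. Its counts stood at 365 and 254 CPM in DMSO, 741, 856 and 985 in GSK-343, and 339 and 162 in TSA. All GSK-343 libraries were above all others. Gnas was higher in GSK-343 than in DMSO by 1.48 ± 0.38 (adjusted p = 0.00907) and lower in TSA than in GSK-343, at -1.78 ± 0.39 (adjusted p = 0.0191). The first call was lost without DMSO replicate 2 (0.0817) and with the GC and length trend removed (0.102), and the second without TSA replicate 2 (0.14) and on TPM (0.0994). The gene has transcripts of maternal, paternal and biallelic expression that are summed here. It shares 8.83% of its exonic bases with the antisense RNA Nespas and 13.1% with the gene Gm20721 on the other strand.

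Nnat lies inside an intron of Blcap on chromosome 2, and each is read from the opposite parental copy. Blcap, a gene reported as lost in bladder cancer, stood at 48.3 and 45.4 CPM in DMSO, 138, 90.5 and 125 in GSK-343, and 66.9 and 45.2 in TSA. The GSK-343 libraries were again the highest, and Blcap was higher in GSK-343 than in DMSO by 1.33 ± 0.35 (adjusted p = 0.0103). The call was lost without DMSO replicate 1 (0.0503) or DMSO replicate 2 (0.0615) and with the trend removed (0.326). TSA against GSK-343 gave -1.07 ± 0.35 (adjusted p = 0.069). Nnat, which encodes the membrane proteolipid neuronatin, ranged from 19.7 to 69.2 CPM with overlapping groups and an adjusted p of at least 0.288. The ratio of Nnat to Blcap TPM was 2.14 and 3.48 in DMSO and 0.377 to 1.52 in treated libraries.

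Rasgrf1 encodes an exchange factor for Ras known from neurons. It stood at 0.898 and 2.61 CPM in DMSO, 0.85, 0.487 and 0 in GSK-343, and 24.4 and 5.87 in TSA. Both TSA libraries were above all others, TSA replicate 1 most. Rasgrf1 was higher in TSA than in GSK-343 by 5.04 ± 1.11 (adjusted p = 0.0202), a call lost without TSA replicate 1 (0.301), without GSK-343 replicate 2 (0.0527) and on TPM (0.0642). Of 9 neuronal markers tested, 3 passed as higher in TSA than in GSK-343, where 4.56% of all genes did. These were Stmn2, Map2 and Snap25, at 5.45 ± 0.44, 2.83 ± 0.44 and 2.89 ± 0.52. The others lay between -0.09 ± 1.09 (Tubb3) and 2.38 ± 0.7 (Nefl) and did not pass. TSA replicate 1 also held the highest sums of neuronal and hair cell markers. The part of these cell types in the difference of Rasgrf1 was not tested. Nap1l5, a nucleosome assembly protein gene of retroposed origin, stood at 6.16 and 13.5 CPM in TSA and at 0.231 to 3.97 in the other libraries, with an adjusted p of 0.166 against GSK-343.

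Peg13 is a noncoding RNA within an intron of Trappc9, on the other parental copy. It stood at 19.8 and 13.8 CPM in DMSO, 2.27, 2.68 and 3.7 in GSK-343, and 15.1 and 7.04 in TSA. The GSK-343 libraries were the 3 lowest. Peg13 was lower in GSK-343 than in DMSO, at -2.53 ± 0.66 (adjusted p = 0.00946; 0.104 on TPM), and TSA against GSK-343 gave 1.93 ± 0.66 (adjusted p = 0.0798). Trappc9, which encodes a subunit of a vesicle tethering complex, ranged from 10.9 to 23.5 CPM with an adjusted p of at least 0.54. The ratio of Peg13 to Trappc9 TPM was 0.0676 to 0.132 in GSK-343, 0.325 and 0.576 in TSA, and 0.736 and 0.98 in DMSO, with no overlap between the groups. The pair lies on the same strand, so intron reads of Trappc9 can fall in Peg13.

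Zdbf2, a paternally expressed gene known for its part in feeding and growth, stood at 49.2 and 52.9 CPM in DMSO, 19.3, 12.2 and 12.5 in GSK-343, and 26.9 and 39.3 in TSA. The groups did not overlap, with GSK-343 lowest. Zdbf2 was lower in GSK-343 than in DMSO, at -1.80 ± 0.41 (adjusted p = 0.00459), a call lost on TPM (0.125) and with the trend removed (0.674). Zrsr1, a retroposed gene of the splicing factor family U2AF inside Commd1, stood at 17.3 and 20.9 CPM in DMSO, 7.37, 4.38 and 6.24 in GSK-343, and 12.6 and 17.9 in TSA. Again the GSK-343 libraries were the 3 lowest. Zrsr1 was lower in GSK-343 than in DMSO, at -1.67 ± 0.55 (adjusted p = 0.0312), and the call was lost without TSA replicate 2 (0.054), without GSK-343 replicate 2 (0.0972) or 3 (0.0742), without DMSO replicate 1 (0.0581) or 2 (0.104), with no filter (0.0768), with total count scaling (0.0973), on TPM (0.228) and with the trend removed (0.198). It shares 412 exonic bases with Commd1 on the other strand.

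The remaining members tested passed in no comparison. Commd1, a copper and NF-kappa-B regulator, ranged from 4.53 to 12.5 CPM, and the retroposed translation factor gene Mcts2 from 7.86 to 22.2. H13, the signal peptide peptidase gene around Mcts2, ranged from 35.9 to 95 CPM, and its smallest adjusted p was 0.0677, for GSK-343 against DMSO at 0.93 ± 0.38. Inpp5f, an inositol phosphatase gene, ranged from 15.6 to 102 CPM, and GSK-343 alone spanned 18.7 to 102. Impact, a regulator of the translation kinase GCN2, ranged from 20.8 to 42.2 CPM, and the matrix proteoglycan gene Dcn from 19.4 to 40.9. For Commd1, Mcts2, Impact and Dcn the adjusted p was at least 0.447 in every comparison.

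The proteins that keep or erase imprints were read from a list of 26 genes, of which 23 could be tested. Between TSA and GSK-343, 1 of the 23 passed the threshold. That gene was Zfp445, a zinc finger protein known to guard imprints together with ZFP57. Zfp445 stood at 53.9 and 33.6 CPM in DMSO, 1.42, 2.92 and 0.694 in GSK-343, and 10.1 and 15 in TSA, so the groups did not overlap. It was higher in TSA than in GSK-343 by 2.88 ± 0.63 (adjusted p = 0.0198) and lower in GSK-343 than in DMSO, at -4.68 ± 0.64 (adjusted p = 0.000285). Against DMSO, 1 of 23 was higher and 7 lower with each compound. Of all genes, 12.8% were higher and 15.7% lower with TSA, and 17.7% and 21.3% with GSK-343. In both directions together 28.5% and 39.0% of all genes passed, and only the summed counts of the list are near these shares. Nothing is drawn from the split by direction. Dnmt3a, a methyltransferase that sets new methylation, was lower with TSA, at -2.65 ± 0.4 (adjusted p = 0.000972), and with GSK-343, at -2.27 ± 0.34 (adjusted p = 0.000485). Tet1 (-2.21 ± 0.45 and -2.91 ± 0.4) and Tet3 (-1.72 ± 0.33 and -1.95 ± 0.29), which encode oxidases of methylated DNA, were lower too. Dnmt1, which copies methylation at replication, ranged from 29.6 to 73.2 CPM with an adjusted p of at least 0.332.

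Of 23 further imprinted genes, 12 could be tested, and 3 were higher and 2 lower in TSA than in GSK-343, where 9.56% of all genes passed. The amino acid transporter gene Slc38a4 was higher by 4.04 ± 0.84 (adjusted p = 0.0165) and the Polycomb-related gene Sfmbt2 by 3.24 ± 0.72 (adjusted p = 0.0208), both paternally expressed, and the third was the maternally expressed Kcnq1. The histone chaperone gene Nap1l4, at -1.72 ± 0.37 (adjusted p = 0.0186), and the tetraspanin gene Cd81, at -1.41 ± 0.37 (adjusted p = 0.0359), were lower. Nap1l4 was higher than in DMSO with GSK-343 (3.02 ± 0.4, adjusted p = 0.000225) and with TSA (1.3 ± 0.39, adjusted p = 0.0261). Cd81 was lower than in DMSO with TSA (-1.92 ± 0.4, adjusted p = 0.00544). Slc38a4 stood at 4.27 and 7.3 CPM in DMSO, 1.42, 0.243 and 6.94 in GSK-343, and 44.8 and 51.6 in TSA. Sfmbt2 stood at 18 and 23.5 CPM in DMSO, 0.567, 1.22 and 0.694 in GSK-343, and 10.4 and 5.87 in TSA. GSK-343 replicate 1 was below the level of 3 counts for Sfmbt2 (0.85 CPM), and replicate 3 was at it. Against DMSO the counts were 2 higher and 2 lower with TSA, and 2 higher and 5 lower with GSK-343, beside 28.5% and 39.0% of all genes. Of 15 genes of the IGF system, 13 could be tested, and 2 were higher and 1 lower in TSA than in GSK-343 (9.56% of all genes). Against DMSO, 2 were higher and 4 lower with TSA (28.5% of all genes) and 3 higher and 4 lower with GSK-343 (39.0%). The IGF-binding protein gene Igfbp5 stood at 6310 and 6510 CPM in DMSO, 7710, 5790 and 4200 in GSK-343, and 1840 and 758 in TSA. Igfbp5 was lower in TSA than in GSK-343, at -2.18 ± 0.46 (adjusted p = 0.0178), and than in DMSO, at -2.30 ± 0.49 (adjusted p = 0.00579). Htra1, which encodes a protease of IGF-binding proteins, was higher in TSA than in GSK-343 by 2.84 ± 0.7 (adjusted p = 0.0282). The insulin receptor gene Insr was higher by 1.22 ± 0.32 (adjusted p = 0.0335). Against DMSO, Insr was lower with GSK-343 (-3.02 ± 0.32, adjusted p = 6.93e-05) and with TSA (-1.8 ± 0.35, adjusted p = 0.00401). Irs1 of the same list was lower too (-3.96 ± 0.63 and -4.39 ± 0.77), while Htra1 and Igfbp4 were higher with both compounds.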

How the data were processed

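RNA was sequenced from 7 libraries of sorted supporting cells: DMSO (n = 2), GSK-343 (n = 3) and TSA (n = 2). The submitters' processing notes name STAR, RSEM, DESeq2 and the build mm10, and the values are those of RSEM, per the file headers; the gene annotation release is not given in the sources used here. The deposited tables give an expected count per gene, in which RSEM shares ambiguous reads between genes, and TPM deposited by the authors, divided by effective length and scaled to a fixed sum; both units are per the file headers. Gene IDs without version suffix were matched to GENCODE M21 (48349 of 48709), and promoter windows came from RefSeq (GRCm38.p6).

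Expected counts were rounded and tested in edgeR 4.0.16 (R 4.3.3) with TMM, filterByExpr (14907 genes kept), glmQLFit and glmQLFTest, in 1 model of all 7 libraries (4 residual degrees of freedom, biological coefficient of variation 0.43). P-values were adjusted over all genes by the Benjamini-Hochberg method at 0.05. Standard errors were taken as the absolute log2 fold change divided by the root of its F statistic. Among the 43 imprinted genes, those without a count in 1 group have a lower bound against 3 counts per library. A group with 1 to 3 counts has a ratio with a 95% interval, and both cover counting error only. Alternatives were DESeq2 1.42.0 (size factors and Wald test), total count scaling, limma 3.58.1 on log2(TPM + 1) for genes of at least 1 TPM in 2 libraries, no filter, 50 counts in 2 libraries, only the 2 groups compared, a replicate block, a threshold of 0.01, removal of a trend on GC content and length, nuclear protein-coding genes alone, each library left out, and, chosen after seeing the data, a robust fit. Libraries of a group were compared and differed by more than sampling noise (chi-square per degree of freedom 14.7 to 43.1). The fit was tested on simulated counts with 66 to 67 genes changed at each size, far fewer than passed in these data. It recovered 1.49% to 4.48% of 2-fold, 23.9% to 37.3% of 4-fold and 53% to 63.6% of 8-fold changes, with 2 to 5 false calls. A gene that did not pass can therefore still have changed. The imprinted genes, the other lists and the tests were chosen with earlier results of these data known. Every imprinted gene past the threshold is given in every library, the others by range, and of the other lists up to 3 genes per comparison by smallest adjusted p, with some added by role after their values were seen.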

Additional observations from a re-analysis of the deposited data

How the results depend on the processing

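The numbers of higher and lower genes depended on scaling, model and library. For TSA against GSK-343 the 680 higher and 745 lower genes became 947 and 378 with total count scaling, 834 and 173 with limma on TPM, 444 higher with the GC and length trend removed, and 51 and 66 at a threshold of 0.01; the 6 and 3 imprinted genes became 5 and 1 with limma and 1 and 1 at 0.01. For TSA against DMSO, 1912 and 2340 became 3782 and 1292 with total counts, 5039 higher with limma, and 762 and 949 at 0.01; the 4 higher imprinted genes became 8 with total counts and 14 with limma, and the 1 lower became 0 with total counts and at 0.01, 2 with no filter, with only the 2 groups, with DESeq2 and with the robust fit, and 3 with 50 counts in 2 libraries, with the trend removed and with protein-coding genes alone. For GSK-343 against DMSO, 2635 and 3174 became 4122 higher with limma, and 1434 and 2000 at 0.01; the 6 and 12 imprinted genes became 12 higher with total counts, 14 and 3 with limma, and 7 lower at 0.01. Kcnq1ot1 reversed with the trend removed, to 3.06 for GSK-343 and 3.03 for TSA against DMSO.

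Leaving out each library in turn gave 89 to 840 higher and 70 to 1038 lower genes for TSA against GSK-343 (imprinted 2 to 7 and 1 to 4), 958 to 2313 and 939 to 2811 for TSA against DMSO (imprinted 4 to 5 and 0 to 2), and 1823 to 2783 and 2528 to 3622 for GSK-343 against DMSO (imprinted 4 to 8 and 6 to 12). Where a group kept 1 library, it was assumed to vary like the others. Same-numbered libraries did not deviate together (r from -0.0857 to 0.0402), so the numbers do not pair them. With the replicate number as a block, 328 genes were higher and 513 lower in TSA than in GSK-343 (imprinted 3 and 3) and 7 imprinted genes were lower in GSK-343 than in DMSO. With that block the adjusted p was above 0.05 for Mest (0.0661), Peg10 (0.0664) and Ddc (0.0997) in TSA against GSK-343, and for Igf2r (0.0535), Peg10 (0.118), Ppp1r9a (0.0731), Ddc (0.14) and Zrsr1 (0.105) in GSK-343 against DMSO.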
